A study of Mus musculus with 9 samples.

Results

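Cytosolic ribosomal protein genes encode the proteins that assemble with ribosomal RNA into the 60S (large) and 40S (small) subunits of the ribosome that translates nuclear messages. They were followed here across all 7 RNA-seq libraries of a study of organoids, self-organising cultures of epithelium, from the small intestine of C57BL/6 mice with the genotype *Vil-CreERT2*;*Mettl3* fl/fl. Members were chosen by symbol (Rpl or Rps with a number and at most 1 further letter of a, x, y or l, plus *Rplp0*, *Rplp1*, *Rplp2* and *Rpsa*), and pseudogene symbols and Rps6k kinases were left out. The rule found 83 members among 54838 gene identifiers, 51 for the 60S and 32 for the 40S subunit. Of these, 81 are annotated as protein coding in RefSeq, and the others are *Rpl6l*, a pseudogene, and *Rps4l*, a transcribed pseudogene.

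Every library came from organoids that carry the floxed *Mettl3* alleles and the Cre transgene. The villin promoter of that transgene is active in intestinal epithelium, and its recombinase works only once 4-OHT (4-hydroxytamoxifen) is added. Organoids received EtOH, the solvent, or 0.5 µM 4-OHT for 2 days, with DMSO or Nec-1 (necrostatin-1, which blocks the kinase activity of RIPK1) over 5 days. The groups EtOH DMSO and EtOH Nec-1 had 2 libraries each, as had 4-OHT DMSO, and 4-OHT Nec-1 had 1. No group without Cre was given 4-OHT, so an effect of the drug itself and one of *Mettl3* excision cannot be told apart.

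Ribosomal protein genes are among the most abundantly transcribed genes of any dividing cell, and their products are needed in matched amounts. In mammals their messages begin with a C followed by a run of pyrimidines, the 5′ terminal oligopyrimidine or TOP tract, through which mTORC1 and the RNA-binding protein *Larp1* control translation and stability together with messages of translation factors. Crypt cells of the intestine divide continuously and make many ribosomes.

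Values are FPKM as the authors deposited them, that is fragments per unit of transcript length and of sequencing depth, and levels can be compared between genes on this scale. FPKM are relative to the other RNA of a library. In bulk RNA, fewer cells of a kind and less RNA per cell cannot be told apart. FPKM summed to 450207 to 498712 per library, and relative depths read from the spacing of the lowest values ran from 0.850 to 1.03, with the first EtOH DMSO library set to 1. Fragment counts are not known. No library labelled 4-OHT had less *Mettl3* than the EtOH libraries. The gene stood at 2.70 and 2.71 in EtOH DMSO, 2.41 and 2.47 with EtOH Nec-1, 3.72 and 4.14 with 4-OHT DMSO and 3.36 with 4-OHT Nec-1. These values cover the whole gene, so excision cannot be read from them, and every direction below rests on the labels. Of the epithelial markers, *Epcam* lay between 431 and 609 FPKM. Markers of fibroblasts (*Col1a1*, *Dcn*) and endothelium (*Cdh5*, *Kdr*) and the leukocyte marker *Ptprc* stayed below 0.1 FPKM in each library. The endothelial marker *Pecam1* was at 0.032 to 0.053 FPKM in the EtOH libraries and 0.111 to 0.132 in those labelled 4-OHT, and the myeloid markers *Itgam*, *Lyz2* and *Cd68* passed 1 FPKM in some libraries.

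Ribosomal protein messages took a large part of the summed FPKM in control organoids and a smaller part in the libraries labelled 4-OHT. Because FPKM are divided by transcript length, this is not their share of the fragments. The 83 members took 10.9% and 9.68% of the summed FPKM in EtOH DMSO, and 9.52% and 9.54% in EtOH Nec-1. Their share was 7.55% and 8.07% in 4-OHT DMSO and, with Nec-1, 7.64%. The 3 libraries labelled 4-OHT were thus below all 4 EtOH libraries. As group means, EtOH DMSO stood at 10.3% ± 0.829 (SD, n = 2) and 4-OHT DMSO at 7.81% ± 0.368 (SD, n = 2). Both subunits took part, since the 60S share went from 6.73% and 5.85% to 4.58% and 5.07%, and the 40S share from 4.13% and 3.84% to 2.97% and 3.00%. The plot of shares by library shows the same separation for ribosomal protein pseudogenes, and the opposite order for the 78 nuclear genes of mitochondrial ribosomal proteins.

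**Figure D1:**
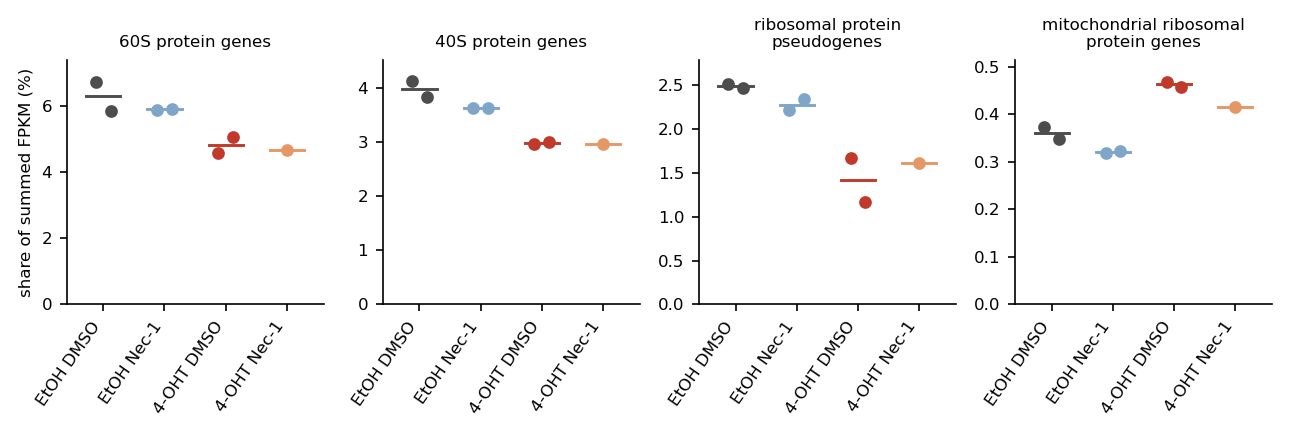
Share of each library's summed FPKM (y axis, percent) taken by 60S protein genes, 40S protein genes, 300 ribosomal protein pseudogene rows and 78 mitochondrial ribosomal protein genes, by group (x axis). Points are libraries and lines are group means. All 3 libraries labelled 4-OHT lie below all 4 EtOH libraries in the first 3 panels and above them in the last.

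The level of single members differed widely. Over the 7 libraries, 76 of the 83 members averaged 100 FPKM or more and 12 averaged 1000 or more. *Rplp1*, an acidic protein of the stalk that recruits elongation factors to the 60S subunit, was the most abundant, at 2116 to 2662 FPKM. *Rps15*, *Rpl36*, *Rpl23a* and *Rplp0* followed it. At the other end, *Rpl3l*, known as the striated muscle form of *Rpl3*, and *Rpl10l*, a testis copy of *Rpl10*, were listed at 0 in every library. *Rpl39l*, another gene known from testis, was listed at 0 in 6 libraries and at 0.128 FPKM in the second EtOH Nec-1 library. Their parents *Rpl3*, *Rpl10* and *Rpl39* stayed between 214 and 569 FPKM. These 3 genes did not reach the minimum of 1 FPKM in at least 2 libraries, which left 80 members for the test.

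Some promoters of the members show the pyrimidine start. In the RefSeq promoter table (GRCm38.p6), which reaches from 250 bases before to 50 bases after each annotated start, 61 members had an entry. These 61 have 73 annotated starts, and a gene was counted when any of its starts had the feature. An annotated start at C with at least 4 further pyrimidines was present for 14 of them (23.0%), against 3.01% of all 27025 genes in that table. The following 30 bases run from 15 before to 15 after such a start, 5′ to 3′, with the tract in capitals. For *Rpl35a* and *Rpl38* this is not the first base of the gene, which RefSeq places at chr16:33056453 and chr11:114667818. They were picked after the changes were known. The first 5 belong to members that fell in the libraries labelled 4-OHT DMSO and the last 3 to members whose change did not pass the test. The calls of *Rpl15* and *Rps15a* were each lost in 8 of 18 alternatives.
*Rps6* (chr4:86857353-86857382, minus strand): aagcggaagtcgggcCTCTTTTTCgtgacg
*Rps18* (chr17:33955651-33955680, minus strand): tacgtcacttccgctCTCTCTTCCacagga
*Rps27* (chr3:90213634-90213663, minus strand): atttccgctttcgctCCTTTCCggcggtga
*Rpl15* (chr14:18270972-18271001, minus strand): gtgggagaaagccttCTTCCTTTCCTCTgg
*Rps15a* (chr7:118116133-118116162, minus strand): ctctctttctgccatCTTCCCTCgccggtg
*Rpl35a* (chr16:33056467-33056496, plus strand): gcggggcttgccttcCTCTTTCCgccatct
*Rplp2* (chr7:141447636-141447665, plus strand): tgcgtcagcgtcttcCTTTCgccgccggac
*Rpl38* (chr11:114668565-114668594, plus strand): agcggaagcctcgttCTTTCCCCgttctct

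Other short motifs were searched on both strands of the same promoters. CCGGAAG, the core that ETS factors such as *Gabpa* bind, was in the promoters of 25 of 61 members (41.0%) and of 9.93% of all genes in the table. AAGATGGC, the core of the *Yy1* motif, was in 5 members (8.20%) and in 3.19% of all genes, and GGGCGG, the GC box, in 36 members (59.0%) and 38.2% of all genes. TATAAA, the TATA box, was in 7 members (11.5%) and 15.7% of all genes. The share of pyrimidine starts counts only those where RefSeq places the start exactly at the C.

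The comparison of 4-OHT DMSO with EtOH DMSO sets organoids labelled as given 4-OHT beside those given EtOH, without Nec-1. Of the 80 members tested, 36 fell and 2 rose. Among all 12702 genes tested, 16.7% fell and 24.5% rose (limma on log2(FPKM + 1), Benjamini-Hochberg adjusted p under 0.05). The members' median log2 fold change was -0.40, and the middle 50% ran from -0.56 to -0.18, beside a median of 0.08 over all genes. By subunit, 22 of 48 tested 60S members fell, the median over the 48 being -0.42, and 14 of 32 40S members fell, with -0.35 as the median over the 32. Both 4-OHT DMSO libraries lay under both EtOH DMSO libraries for 55 of the 80, beside 30.8% of all genes tested. The count rests in part on the first EtOH DMSO library, in which 75 of the 80 members were above the second one, by 1.15 times at the median. Without it, 23 members fell and the median was -0.27. The count was also 23 without either EtOH Nec-1 library, where fewer libraries set the spread.

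**Figure D2:**
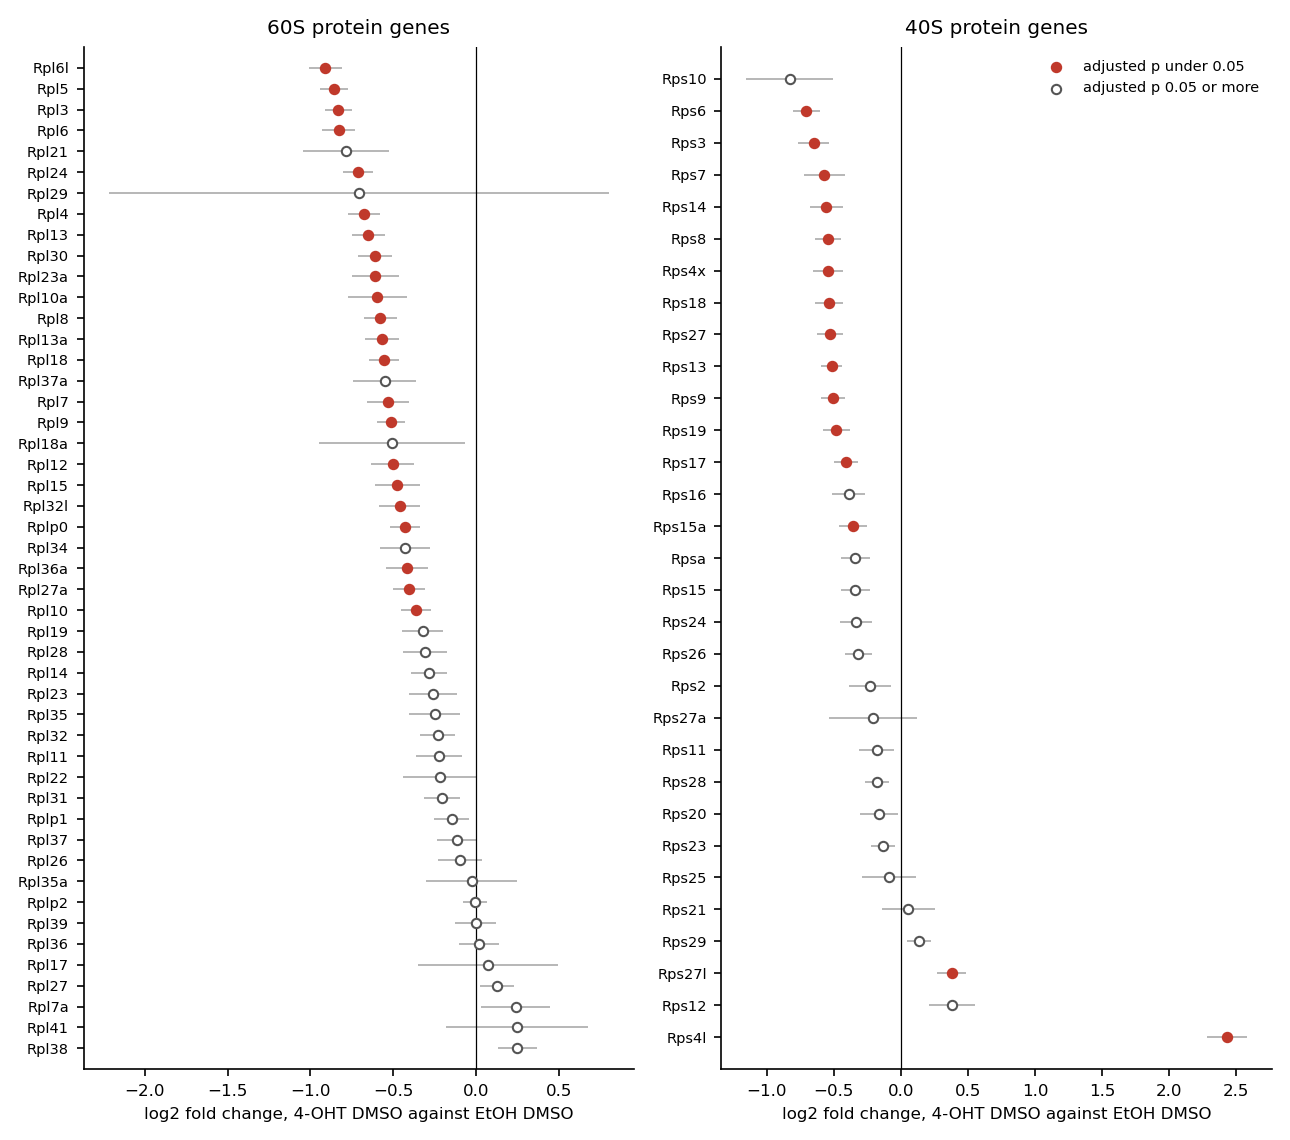
Log2 fold change between 4-OHT DMSO and EtOH DMSO (x axis, 2 libraries per group) of the 48 tested 60S members (left) and 31 of the 32 40S members (right), ordered by change. Bars are limma standard errors, and filled points have an adjusted p under 0.05. Most points lie left of 0, among them 35 filled ones, and *Rps4l* at 2.43 stands apart on the right.

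Of the 8 members with the largest falls past the threshold, 6 have 60S symbols, beside 48 of the 80 members tested. The pseudogene *Rpl6l* is counted among these 6. *Rpl3*, which lines the peptidyl transferase centre, is encoded at chr15:80077781-80083406 (GRCm38.p6). It was at 569 and 528 FPKM in EtOH DMSO, 531 and 532 with EtOH Nec-1, 307 and 307 with 4-OHT DMSO and 320 with 4-OHT Nec-1. The groups with and without 4-OHT did not overlap. Its mean went from 548.5 ± 28.7 to 307.3 ± 0.188 FPKM (SD, n = 2 each), 44.0% lower, or -0.83 ± 0.08 log2 units (standard error), with a limma adjusted p of 0.00158.

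*Rpl5*, which joins the 5S ribosomal RNA and *Rpl11* before entering the 60S subunit (chr5:107900508-107909005), was at 466 and 433 FPKM in EtOH DMSO, 457 and 456 with EtOH Nec-1, 242 and 253 with 4-OHT DMSO and 299 with 4-OHT Nec-1. It was 44.9% lower, by a log2 fold change of -0.86 (standard error 0.08, limma adjusted p = 0.0015). Its partner *Rpl11*, looked up after these values were seen, was at 356 and 289 FPKM in EtOH DMSO and at 251 and 301 in 4-OHT DMSO, so these groups overlapped. *Rpl6* fell by 0.83 on the log2 scale, *Rpl24* by 0.71 and *Rpl4* by 0.68, with limma adjusted p of 0.00261, 0.0035 and 0.00478. *Rpl6l*, the *Rpl6*-like pseudogene, was at 130 and 113 FPKM in EtOH DMSO and at 61.2 and 67.0 in 4-OHT DMSO, a log2 fold change of -0.91. Its identity to *Rpl6* was not computed, and how fragments were shared between them was not tested.

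In the 40S subunit, *Rps6*, the substrate of S6 kinases downstream of mTORC1 (chr4:86854099-86857367), was at 1343 and 1178 FPKM in EtOH DMSO, 1169 and 1180 with EtOH Nec-1, 774 and 766 with 4-OHT DMSO and 854 with 4-OHT Nec-1. All 3 libraries labelled 4-OHT were below all 4 EtOH libraries. The mean fell by 38.9%, with a log2 fold change of -0.71 (standard error 0.10, limma adjusted p = 0.00452). *Rps4x* fell by 0.55 on the log2 scale (limma adjusted p = 0.0143). *Rpsa*, the laminin receptor protein of the 40S subunit, was at 698 and 594 FPKM in EtOH DMSO and at 493 and 523 in 4-OHT DMSO, and its limma adjusted p of 0.0516 missed the threshold. It passed in 6 of 18 alternatives, among them all 4 scalings.

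The stalk of the 60S subunit was uneven. *Rplp0*, its base (chr5:115559467-115563729), was at 1515 and 1404 FPKM in EtOH DMSO, 1390 and 1351 with EtOH Nec-1, 1067 and 1099 with 4-OHT DMSO and 1103 with 4-OHT Nec-1. It fell by 25.8% (log2 fold change -0.43, limma adjusted p = 0.0166). The acidic proteins that bind to this base gave other values. *Rplp1* was at 2662 and 2365 FPKM in EtOH DMSO and at 2255 and 2274 in 4-OHT DMSO, a log2 fold change of -0.15 (limma adjusted p = 0.307). For *Rplp2* the values were 279 and 270 against 269 and 277 FPKM, which overlapped. *Rpl38* was at 681 and 594 FPKM in EtOH DMSO and at 703 and 812 in 4-OHT DMSO (log2 fold change 0.25, limma adjusted p = 0.145). Changes of single members therefore ran from -0.91 to 2.43, and the 42 members that did not pass the test are not shown to be unchanged.

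Paralogs of 40S proteins made up both rises. *Rps4l* (chr6:148354656-148355596), an S4-like transcribed pseudogene, was at 6.69 and 7.46 FPKM in EtOH DMSO, 4.54 and 6.11 with EtOH Nec-1, 39.8 and 45.3 with 4-OHT DMSO and 27.9 with 4-OHT Nec-1. Every library labelled 4-OHT was above every EtOH library. Its mean was 6.01 times as high in 4-OHT DMSO, with a log2 fold change of 2.43 (standard error 0.15, limma adjusted p = 0.000498). *Rps4x*, the X-linked gene for S4, stood at 1139 and 968 FPKM in EtOH DMSO and at 693 and 746 in 4-OHT DMSO. The parent gene was thus far above *Rps4l* in every library and went the other way. Whether fragments of one were assigned to the other was not tested.

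*Rps27l* (chr9:66944624-66949522), a paralog of *Rps27* known as a p53 target, was at 273 and 235 FPKM in EtOH DMSO, 273 and 246 with EtOH Nec-1, 339 and 321 with 4-OHT DMSO and 274 with 4-OHT Nec-1. It rose 0.38 log2 units ± 0.11 (standard error), with a limma adjusted p of 0.0408. This call was lost in 11 of 18 alternatives, among them 3 of the 4 scalings. *Rps27* itself fell from 473 and 411 to 309 and 301 FPKM (log2 fold change -0.53, limma adjusted p = 0.00985). *Rpl32l*, at 4.65 and 3.69 against 2.75 and 2.72 FPKM, fell by 0.46 on the log2 scale (limma adjusted p = 0.0325), a call lost in 7 of 18 alternatives. *Rpl32* was at 1297 and 1151 FPKM in EtOH DMSO and up to 1081 in 4-OHT DMSO without passing the test.

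**Figure D3:**
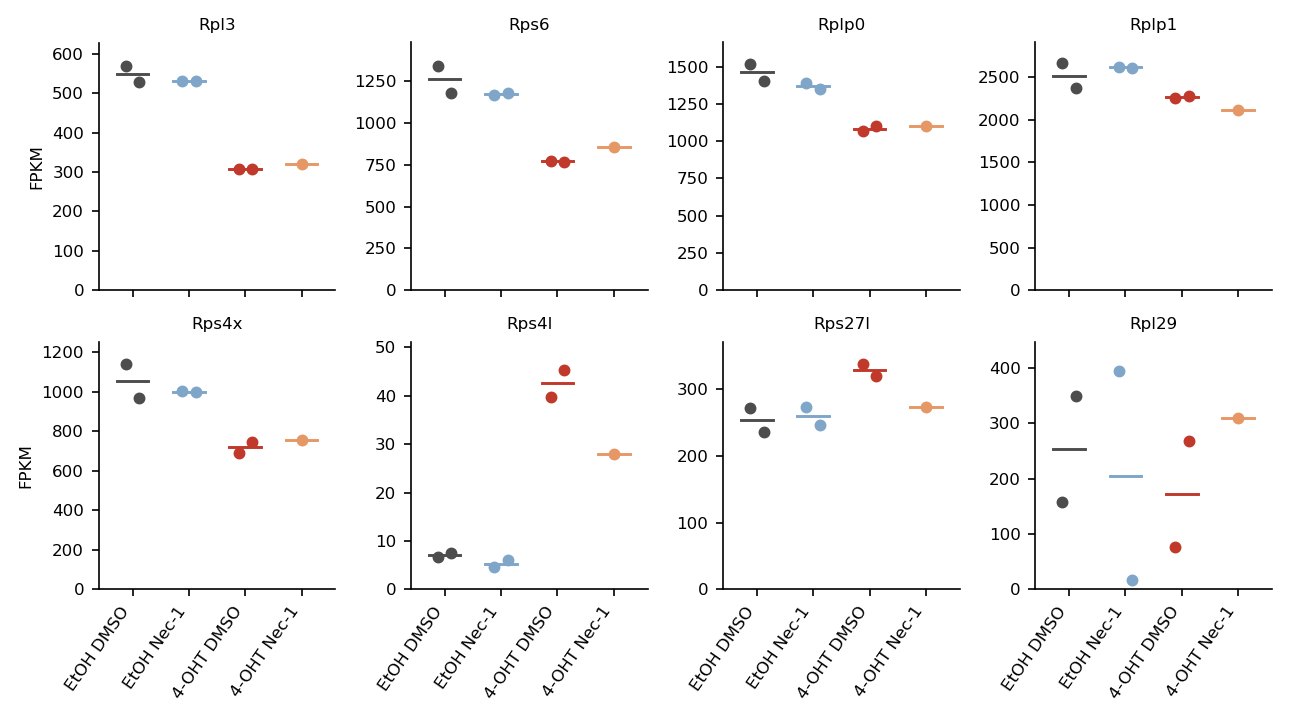
FPKM (y axis, from 0) of 8 members in the 4 groups (x axis). Points are libraries and lines are group means. *Rpl3*, *Rps6*, *Rplp0* and *Rps4x* are lower in the libraries labelled 4-OHT, *Rps4l* is higher at 27.9 to 45.3 FPKM, *Rplp1* spans 2116 to 2662 FPKM, and *Rpl29* scatters from 16.1 to 395 FPKM within EtOH Nec-1.

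Members with and without a pyrimidine start were among those that fell. Of the 14 members with such a start, 6 fell, and the median log2 fold change of the 14 was -0.33. Of the 44 tested members with a RefSeq start of another kind, 20 fell, with a median over the 44 of -0.38, and 10 of the 22 members without a promoter entry fell. Among the sequences printed above, *Rps6* fell by 0.71 on the log2 scale, whereas *Rplp2* was at -0.01 and *Rpl38* at 0.25. Over all 14 the changes ran from -0.83, for *Rps10*, which was not printed and did not pass the test, to 0.25. No test was made of the difference between members with and without such a start.

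Other parts of the translation machinery moved in both directions. Among 8 ribosomal components whose symbols lie outside the rule, 3 fell and 1 rose. *Rps3a1* fell by 0.63 on the log2 scale, *Rack1*, a scaffold on the 40S subunit, by 0.75, and *Fau*, which encodes eS30 fused to a ubiquitin-like protein, by 0.46. *Rpl36al* rose by 0.52. Of 14 translation factors and other genes known for TOP messages, 10 fell and none rose, with a median of -0.50. Of all genes tested, 16.7% fell and 24.5% rose. *Eif4b*, which assists the eIF4A helicase, went from 189 and 201 FPKM in EtOH DMSO to 90.2 and 82.8 in 4-OHT DMSO (log2 fold change -1.16, limma adjusted p = 0.00072). *Eif3e* fell by 0.94, *Tpt1* by 0.83 and *Eif3f* by 0.72. Each of these 4 genes was lower in both 4-OHT DMSO libraries than in both EtOH DMSO libraries.

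Genes of ribosome assembly went the other way. Of 43 such genes, 25 rose and none fell, with a median log2 fold change of 0.44. *Grwd1*, which escorts *Rpl3*, went from 8.04 and 9.36 to 34.4 and 26.6 FPKM (log2 fold change 1.69, limma adjusted p = 0.00119). *Rrs1*, needed for the 5S particle that contains *Rpl5*, rose by 1.52 on the log2 scale, *Polr1b*, a subunit of RNA polymerase I, by 1.41, and *Nop2*, which methylates ribosomal RNA, by 1.37. In the list of 14 TOP regulators, *Larp1* and *Eif4ebp1* rose, by 0.69 and 0.46, and none fell. Of 78 mitochondrial ribosomal protein genes, which serve a separate ribosome, 26 rose and 3 fell, with a median of 0.21. Over all 12702 genes tested, 24.5% rose and 16.7% fell, with a median of 0.08.

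**Figure D4:**
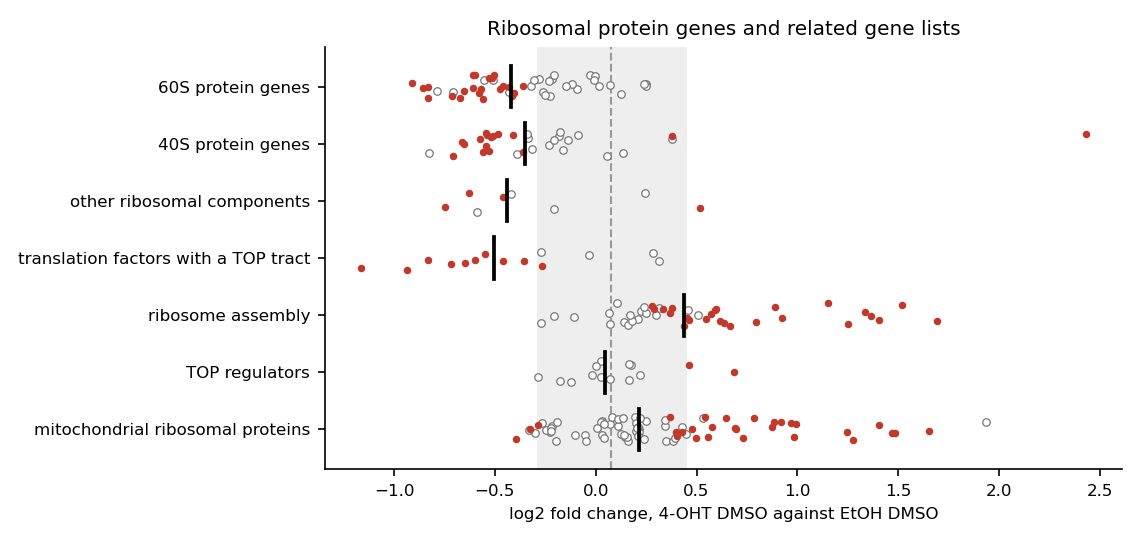
Log2 fold change between 4-OHT DMSO and EtOH DMSO (x axis) of single genes in 7 lists (rows). Filled points have a limma adjusted p under 0.05, black bars are list medians, the dashed line is the median of all genes (0.08) and the grey band their middle 50%. The first 4 lists have medians of -0.35 to -0.50, ribosome assembly lies at 0.44, and mitochondrial ribosomal proteins at 0.21.

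Markers of the cell types of the epithelium changed beside the members. All 7 Paneth, 6 goblet and 5 enteroendocrine markers rose in 4-OHT DMSO, and the summed FPKM of the Paneth list went from 7623 to 8402 in EtOH DMSO to 20016 to 20413. Of 5 stem markers, 3 fell (*Lgr5*, *Olfm4* and *Smoc2*), and the sum went from 46.1 to 47.8 down to 21.3 to 29.1. Of 6 cycling markers, *Top2a* and *Pcna* fell, and none of the others passed the test. Of 7 markers of the epithelium as a whole, 4 rose and 1 fell. Beside these counts, 24.5% of all genes tested rose and 16.7% fell. Enterocyte markers *Sis*, *Alpi* and *Fabp2* fell while *Apoa1* rose. Among immune markers, *Cd68* rose from 0.774 and 2.01 to 5.69 and 7.72 FPKM. *Itgam*, at 1.96 and 1.19 against 0.315 and 0.917 FPKM, did not pass the test (limma adjusted p = 0.0786), nor did *Lyz2*, at 0.634 and 0.237 against 0.677 and 0.344, and *Ptprc* and *Cd3e* were at or near 0 in each library. The part of these shifts in the lower level of the members was not tested.

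Nec-1 alone left no member past the threshold. Between EtOH Nec-1 and EtOH DMSO, 0 of the 80 members passed the limma test, and 3 had an unadjusted p under 0.05. Over all genes, 0.173% rose and 0.0472% fell, and 1689 of 12702 had an unadjusted p under 0.05. The members' median log2 fold change was 0.01, with the middle 50% between -0.07 and 0.08, beside -0.09 over all genes. The 3 members were *Rplp2*, *Rpl26* and *Rpl32l*, with *Rpl26* named only after this count was seen. *Rplp2* was at 279 and 270 FPKM in EtOH DMSO and at 223 and 225 for EtOH Nec-1, a log2 fold change of -0.29 (limma adjusted p = 0.254). *Rpl26*, a 60S protein, was at 751 and 601 FPKM against 937 and 920, a log2 fold change of 0.47 (limma adjusted p = 0.287). For *Rpl32l* the values were 4.65 and 3.69 against 5.73 and 5.21 FPKM. In each of these genes the groups did not overlap. The genes were picked by their p-value in this same comparison, so that lack of overlap adds no support.

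Nec-1 in 4-OHT organoids was measured in 1 library, and no test was made. The 3 libraries hold 80 members that average 1 FPKM or more. Of these, 3 lay at least 0.25 log2 units above both 4-OHT DMSO libraries and 3 at least that far below both. Over all 12036 genes the shares were 6.75% above and 16.3% below. The members' median difference was 0.02, beside -0.09 over all genes. *Rps27a*, which encodes ubiquitin fused to eS31, was at 119 and 192 FPKM without and 275 with Nec-1, *Rps10* at 121 and 150 against 210, and *Rpl32l* at 2.75 and 2.72 against 4.13. Below both were *Rps4l*, at 39.8 and 45.3 against 27.9 FPKM, *Rps12*, at 263 and 303 against 200.0, and *Rplp2*, at 269 and 277 against 209. *Rplp2* was thus lower with Nec-1 in EtOH and in 4-OHT organoids. Summed with its own pseudogene rows, *Rps27a* was lower with Nec-1, at 680 and 587 FPKM without and 517 with it. *Rps12*, summed in the same way, was at 1112 and 773 against 991 FPKM, between the 4-OHT DMSO libraries. The sum for *Rps10* stayed above, at 525 and 398 against 655 FPKM. The counts depend on the partner libraries, being 9 above and 13 below without the first 4-OHT DMSO library, and 8 and 5 without the second.

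The lower level of the members in libraries labelled 4-OHT was also seen under Nec-1. Against both EtOH Nec-1 libraries, 51 of 80 members were lower by at least 0.25 log2 units in the 4-OHT Nec-1 library and 4 were higher, beside 20.5% lower and 30.4% higher of all 11746 genes. The median difference was -0.37 for the members and 0.07 for all genes. None of these 3 libraries gives a value to the fold changes of 4-OHT DMSO against EtOH DMSO. The EtOH Nec-1 libraries do help to set the spread of that test, whereas the single 4-OHT Nec-1 library has no partner and adds no spread. All 36 members that fell in 4-OHT DMSO were among these 51, that is 100% of the first list and 70.6% of the second. Over all genes, 1465 of the 2120 that fell in 4-OHT DMSO were also lower here by this margin, 69.1% of those that fell and 60.9% of the 2407 lower here. Over the 80 members the 2 sets of differences had the same sign for 69 (86.2%), with Pearson's r of 0.61 and Spearman's rho of 0.64 across genes, which are not independent replicates. Over all 11734 genes in both, the sign was the same for 82.1%, with r of 0.78 and rho of 0.79.

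**Figure D5:**
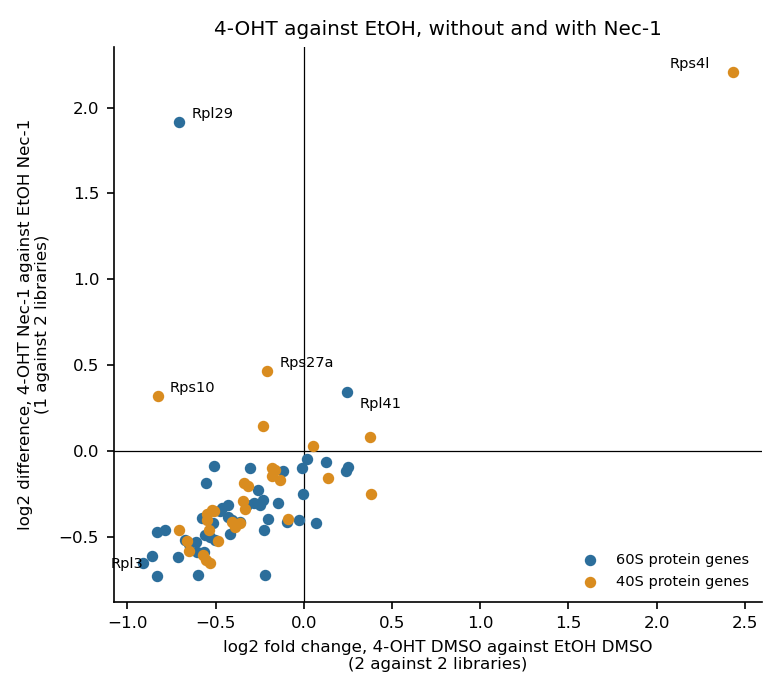
Each point is 1 of 80 members, with the log2 fold change of 4-OHT DMSO against EtOH DMSO (x axis, 2 against 2 libraries) and the log2 difference of 4-OHT Nec-1 against EtOH Nec-1 (y axis, 1 against 2 libraries). Most members lie at the lower left, and *Rps4l* lies in the upper right at 2.43 and 2.21. *Rpl29* and *Rps10* lie in the upper left.

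Furthest below both EtOH Nec-1 libraries were *Rpl3*, *Rpl10a*, *Rpl6l*, *Rps27*, *Rpl5* and *Rps14*. *Rpl3* differed from their mean by -0.73 and *Rpl5* by -0.61 log2 units. *Rpl10a* was at 374 and 419 FPKM in EtOH Nec-1 and at 240 in 4-OHT Nec-1, and *Rps14* at 1353 and 1297 against 853. The 4 members above by the same margin were *Rps4l*, *Rps27a*, *Rpl41* and *Rps10*. *Rps4l* was 2.21 log2 units above the mean of the EtOH Nec-1 libraries, and the others were at 0.32 to 0.47. Between the EtOH DMSO libraries, *Rps27a* differed by 1.72, *Rpl41* by 2.35 and *Rps10* by 2.01 times. Summed with its own pseudogene rows, *Rps27a* was at 847 and 931 FPKM in EtOH Nec-1 and at 517 in 4-OHT Nec-1. *Rps10*, summed in the same way, was at 783 and 755 against 655 FPKM. Both sums were thus lower in 4-OHT Nec-1, unlike the genes alone. Among the other lists in this comparison, 23 of 43 ribosome assembly genes were higher by at least 0.25 log2 units and 1 was lower. By the same margin, 7 of 14 TOP genes were lower and none was higher. Of 78 mitochondrial ribosomal protein genes, 35 were higher and 14 lower. Over all genes the shares were 30.4% higher and 20.5% lower.

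Pseudogene copies limit the reading of single members. The files list 300 ribosomal protein pseudogene rows, and 60 members have at least 1 row named after them. Their FPKM summed to 11989 and 11110 in EtOH DMSO, 11044 and 11464 with EtOH Nec-1, 8132 and 5700 with 4-OHT DMSO and 8026 with 4-OHT Nec-1. In the second 4-OHT DMSO library, 67 of the 119 rows that average 1 FPKM or more were below the first, while 63 of the 80 members were above it, by 1.06 times at the median. For *Rpl35a*, 6 pseudogene rows summed to 720.2 FPKM in the first 4-OHT DMSO library and 37.3 in the second, while *Rpl35a* itself was at 103 and 184. When each member was summed with its own pseudogene rows, 43 members fell and 2 rose in 4-OHT DMSO, with a median of -0.48. *Rps10* went from 340 and 170 FPKM in EtOH DMSO to 121 and 150 in 4-OHT DMSO without passing the test (limma adjusted p = 0.0929), and its 4 pseudogene rows went from 668.7 and 561.9 to 403.6 and 247.5. The only pseudogene row named after *Rps4l* was listed at 0 in every library.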

How the data were processed

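RNA-seq libraries (7) of *Vil-CreERT2*;*Mettl3* fl/fl organoids were used, and 2 CUT&Tag samples were not analysed here. For each Ensembl gene identifier the authors deposited an FPKM value per library, from Illumina HiSeq X reads. Their processing notes name HISAT2 2.1.0, StringTie 1.3.3b and mm10, and the gene annotation is not given in the sources used here. Of the columns of values, 2 repeat another file, and 0 were left unmapped. Fragments from near-identical copies can be split between members and pseudogenes. Nec-1 was given at a concentration on which the study's texts differ. Where nothing says that libraries of a group came from separate cultures, p-values measure only the spread between them.

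Software was R 4.3.3 with limma 3.58.1, and Python 3.11.15 with pandas 2.3.3, numpy 2.4.6, matplotlib 3.10.9 and scipy 1.17.1. limma with a mean-variance trend was run on log2(FPKM + 1) for the 12702 genes that reached 1 FPKM in 2 or more libraries, with 1 mean per group over 7 libraries (3 residual degrees of freedom), Benjamini-Hochberg adjustment and a threshold of 0.05. The pseudocount of 1 understates changes of low genes. The comparisons with the single 4-OHT Nec-1 library have no test. A gene was counted there when it lay at least 0.25 log2 units past each library of the other group, among genes averaging 1 FPKM or more. The fit was tested on simulated data.

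The members and lists were chosen with earlier results of these data known. Named are *Mettl3*, *Rpl3*, *Rps6*, *Rplp0*, *Rplp1*, *Rplp2*, *Rpsa*, members ending in l and their parents, the 8 largest rises and falls past the threshold, the 6 members furthest past both libraries in the comparisons without a test, the 5 most and least abundant members, the 3 above 10 FPKM with the widest gap within a group, and up to 4 genes of each other list. Some items are not reported here. Alternatives were limma without the trend, 4 scalings, a pseudocount of 0.1, other filters and folds, only the 4 libraries compared, the replicate number as a block, and each library left out. Sums of members with their pseudogene rows were chosen after seeing the data. Positions and promoters are RefSeq's, GRCm38.p6, the assembly of mm10.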

Additional observations from a re-analysis of the deposited data

Results flagged for a closer look

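*Rpl39*, *Rpl6l* and *Rplp0* differed in opposite directions with Nec-1 in EtOH and in 4-OHT organoids, in every pairing of libraries. The share of all genes with this pattern is not given here. By the sign of the group differences alone, 39 of 80 members had the same direction in both, beside 63.7% of all 11937 genes. The difference between the Nec-1 effects was not tested, and 4-OHT Nec-1 has 1 library. *Rpl39*, a small 60S protein, was at 366 and 296 FPKM in EtOH DMSO and 382 and 367 for EtOH Nec-1 (log2 fold change 0.19), and at 315 and 342 for 4-OHT DMSO and 314 for 4-OHT Nec-1 (log2 difference -0.063). For *Rpl6l* the log2 fold change was -0.18 in EtOH organoids and the difference 0.072 in 4-OHT organoids. For *Rplp0* the values were -0.090 and 0.027, and the first turned to 0.0090 with median centring and 0.018 with upper quartile scaling. None of these changes in EtOH organoids passed the limma test (adjusted p of 0.56, 0.475 and 0.707), and the differences in 4-OHT organoids are smaller than the 0.25 log2 units used for counting.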

How the results depend on the processing

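Between 4-OHT DMSO and EtOH DMSO the members' median log2 fold change stayed below 0 in all 18 alternatives. It was -0.56 with median centring and with upper quartile scaling and -0.51 when libraries were scaled on genes outside the members, where the median of all genes moved from 0.08 to -0.08, -0.05 and -0.01. In these scalings 46, 50 and 49 members were lower, and 47 with equal summed FPKM. Leaving out each library gave medians of -0.50 to -0.27 and 23 to 44 lower and 1 to 2 higher members. With no filter on low values 21 members were lower, and with only the 4 libraries of the comparison 23, from fewer residual degrees of freedom. One member (1) was higher without the trend, with median centring, upper quartile scaling, scaling outside the members, no filter, and only 4 libraries. Calls of *Rpl3*, *Rpl5*, *Rpl6*, *Rpl6l*, *Rpl24*, *Rpl4*, *Rps6*, *Rps18*, *Rps27* and *Rps4l* held in all 18. The call of *Rplp0* was lost in 4 and that of *Rps4x* in 1. *Rplp2* changed sign without the first EtOH DMSO or the first 4-OHT DMSO library, at 0.016 and 0.013, within a range of -0.031 to 0.016 over single libraries left out.

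For EtOH Nec-1 against EtOH DMSO, 0 members were called in each alternative. The median was 0.12 with upper quartile scaling, and ran from -0.10 to 0.13 without single libraries. The value of *Rplp0* turned to 0.0090 with median centring and 0.018 with upper quartile scaling. For 4-OHT Nec-1 against 4-OHT DMSO, median centring gave 9 members above and a median of 0.13, and upper quartile scaling 14 and 0.15. Scaling to equal summed FPKM, or outside the members, gave 5 below. A fold of 0.5 gave 1 above and 0 below, and a fold of 1 gave 0 of each. Without 1 partner library, 8 to 9 were above, 5 to 13 below and the median was -0.03 to 0.05. For 4-OHT Nec-1 against EtOH Nec-1, median centring and upper quartile scaling gave 1 above and medians of -0.51 and -0.51, a fold of 0.5 gave 1 above and 15 below, and a fold of 1 gave 1 and 0. Without *Rplp1* and the other 2 most abundant members, the shares were 8.83%, 8.22%, 6.59% and 6.50% for EtOH DMSO, EtOH Nec-1, 4-OHT DMSO and 4-OHT Nec-1. Replicate numbers were shared between groups, but their differences correlated at -0.04, 0.01 and -0.01, so libraries with the same number did not deviate together. Whether they came from the same culture cannot be read from these values. With the replicate block, 31 members were lower and 2 higher in 4-OHT DMSO, and 0 were called for EtOH Nec-1. Depth is unknown, and 2 libraries per group limit what could be detected.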

Other observations

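A few abundant members differed more between libraries of the same group than between groups. Of the 80 members tested, 9 differed by 1.5 times or more between the libraries of at least 1 group. The share of all genes with such a gap is not given here. *Rpl29* had the widest gap, 24.5 times, with 158 and 350 FPKM in EtOH DMSO, 395 and 16.1 with EtOH Nec-1, 76.9 and 268 with 4-OHT DMSO and 310 with 4-OHT Nec-1. Its 3 pseudogene rows summed to at most 1.59 FPKM in any library. Rpl17 was at 1057 and 427 FPKM in EtOH DMSO, and its 11 pseudogene rows summed to 1806 and 2277 there, so that gene and rows differed in opposite directions. *Rpl41*, whose product is the smallest protein of the ribosome, was at 1771 and 754 FPKM in EtOH DMSO and at 1095 and 1719 in 4-OHT DMSO. For such members no difference between groups can be read at this number of libraries.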
